A study of Homo sapiens with 6 samples.

Results

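Keratins are the intermediate filament proteins of epithelial cells, and the keratins that a keratinocyte makes mark its place in the epidermis. A filament is built from obligate pairs of an acidic type I and a basic type II keratin. Keratinocytes of the basal layer make KRT5 with KRT14 and, in part, KRT15, suprabasal cells that have left the basal layer make KRT1 with KRT10 and later KRT2, and wounded, inflamed or hyperproliferative epidermis makes KRT6A and KRT6B with KRT16 and KRT17. The expression of these 10 genes was examined in RNA-seq data of human keratinocytes with and without the FGF receptor 2 gene, *FGFR2*. They were taken by symbol from the 21475 genes of the deposited tables as 3 basal, 3 suprabasal and 4 stress keratins, and all 10 were found.

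The data came from 3 wild-type (WT) and 3 *FGFR2* knockout (KO) HaCaT cell lines, with 1 library per line. HaCaT is a line of human skin keratinocytes that became immortal in culture without a transforming gene. The KO lines had been made with Cas9 and a guide RNA against an exon of *FGFR2*, and each was expanded from a sorted single cell. Of the study's WT lines, 1 was the uncloned starting population and the others were clones. In a figure legend on FGF receptor levels, the paper describes the HaCaT data of this series as coming from 3 clonally expanded lines. Which WT line gave which library is not given in the sources used here. All lines were grown in high-glucose DMEM with fetal bovine serum and without an added growth factor or inflammatory stimulus. What differs between lines for other reasons and what differs with genotype can be told apart only as far as 3 lines against 3 allow. In bulk RNA, fewer cells that make a keratin and less of its RNA per cell cannot be told apart. Values are FPKM, fragments scaled by transcript length and library depth, so that levels of different genes can be compared per length. Depth was estimated from the steps between low values as 67500000 to 87800000 fragments per library. Mitochondrial genes took 21.5% to 27.6% of the FPKM in WT and 15.8%, 23.7% and 11.9% in KO replicates 1, 2 and 3, the smallest share being that of KO replicate 3. *FGFR2* had 21.6, 39.7 and 15.0 FPKM in WT and 3.04, 2.26 and 4.31 FPKM in KO replicates 1, 2 and 3, so that all KO lines were below all WT lines, as labelled.

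The labelled cell type was checked against marker genes. All 8 genes of a list of keratinocyte identity markers were expressed, and their summed level was 4431 to 4477 FPKM in WT and 3080 to 4958 FPKM in KO. *TRIM29*, *SFN* and *ITGA6* were the highest of them, with up to 2678, 1380 and 846 FPKM. Of 7 fibroblast markers, *COL1A2*, *COL3A1*, *PDGFRA* and *PDGFRB* were below 0.1 FPKM in every library, whereas *COL1A1* reached 16.7 FPKM and *DCN* 15.5 FPKM, both in WT replicate 2, and the summed level of the list was 7.99 to 33.2 FPKM in WT and 6.92 to 12.6 FPKM in KO. Of 6 melanocyte markers, *MLANA* and *TYR* were at or near 0, the highest were *MITF* with up to 4.01 FPKM and *PMEL* with up to 2.43 FPKM, and the list summed to between 1.24 and 5.58 FPKM over all libraries. Of 6 immune cell markers, *CD1A* was listed at 0 in every library and *CD3E* and *CD207* were below 0.1 FPKM, while *CD68*, which many cell types express in their lysosomes, had up to 20.4 FPKM and *CD14* up to 1.62 FPKM. That list summed to 12.4 to 22.1 FPKM in WT and 5.26 to 11.7 FPKM in KO. Of 4 endothelial markers, *KDR* was listed at 0 in every library, *VWF* had 5.66 to 27.1 FPKM and *CDH5* up to 4.92 FPKM, and the list summed to 18.1 to 27.2 FPKM in WT and 5.82 to 17.5 FPKM in KO. Their part in the keratin values was not tested. The lowest sum of the 10 keratins in a library was 16794 FPKM.

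Sequence matters for these genes, because they arose by duplication and reads from shared stretches have to be divided between copies. The 5 type II members lie in a cluster on chromosome 12 and the 5 type I members on chromosome 17, all on the minus strand. The coding sequences of *KRT6A*, *KRT6B* and their close copy *KRT6C* have the same length of 1695 bases, and *KRT6A* differs from *KRT6B* at 43 of them (97.5% identity) and from *KRT6C* at 35 (97.9%). The longest run without a difference between *KRT6A* and *KRT6B* was 269 bases. The 60 bases inside 1 exon where *KRT6A* and *KRT6B* differ most are coding bases 663 to 722, in exon 2 of each gene. They are shown because reads over such stretches are what tells these genes apart. In capitals are the positions at which the 3 genes are not the same (GRCh38, GENCODE release 44, coding strand, from chr12:52491555-52491614 for *KRT6A*, chr12:52450439-52450498 for *KRT6B* and chr12:52472099-52472158 for *KRT6C*).
KRT6A: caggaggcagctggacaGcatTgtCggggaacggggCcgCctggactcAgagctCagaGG
KRT6B: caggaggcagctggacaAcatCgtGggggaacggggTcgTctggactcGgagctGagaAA
KRT6C: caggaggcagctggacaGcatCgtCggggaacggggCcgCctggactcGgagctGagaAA
Over these 60 bases *KRT6B* differs from *KRT6A* at 9 positions and *KRT6C* differs from it at 5.

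The same question was put to whole transcripts by cutting the reference transcript of each member into words of 31 bases and looking for each word in the transcripts of all other genes. Of the words of *KRT6B*, 57.8% also occurred in another gene, and of those of *KRT6A*, 52.7% did, in both cases most often in *KRT6C*. The type I genes *KRT14* (46.8%), *KRT17* (39.8%) and *KRT16* (39.1%) shared words with each other and with pseudogenes of *KRT16* and *KRT17*. *KRT5* shared 8.2%, *KRT15* 5.4%, *KRT10* 1.7%, *KRT2* 0.8% and *KRT1* 0.2%. The values of *KRT6A*, *KRT6B*, *KRT14*, *KRT16* and *KRT17* are therefore uncertain to the extent that the pseudoalignment divided shared reads, while those of the suprabasal keratins rest almost entirely on their own sequence. *KRT10* overlaps the antisense gene *KRT10-AS1*, *KRT17* overlaps an unnamed gene on the other strand, and *KRT15* overlaps the microRNA gene *MIR6510*. The libraries were made with a stranded kit, but whether strand was used in the quantification is not given in the sources used here.

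For 3 of the 10 genes the RefSeq table of promoters held an entry, and the 250 bases before their start sites are shown as a basal keratin of high level next to suprabasal keratins of high and of very low level (GRCh38.p14, minus strand, KRT5 at chr12:52520395-52520644, KRT10 at chr17:40822615-40822864 and KRT2 at chr12:52652212-52652461). Capitals mark matches to any of 4 motifs, the TATA box as TATAAA, the AP-1 site as TGANTCA, the GC box as GGGCGG and the AP-2 site as GCCNNNGGC, each searched on both strands.
KRT5: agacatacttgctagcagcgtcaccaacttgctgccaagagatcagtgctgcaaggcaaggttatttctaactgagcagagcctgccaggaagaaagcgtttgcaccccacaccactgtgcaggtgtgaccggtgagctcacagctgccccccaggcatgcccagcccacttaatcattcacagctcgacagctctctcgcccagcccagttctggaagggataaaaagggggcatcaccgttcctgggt
KRT10: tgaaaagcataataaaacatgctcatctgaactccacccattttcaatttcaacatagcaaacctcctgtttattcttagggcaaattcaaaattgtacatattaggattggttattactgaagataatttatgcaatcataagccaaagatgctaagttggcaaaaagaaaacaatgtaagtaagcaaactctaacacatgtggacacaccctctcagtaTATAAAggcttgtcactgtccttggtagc
KRT2: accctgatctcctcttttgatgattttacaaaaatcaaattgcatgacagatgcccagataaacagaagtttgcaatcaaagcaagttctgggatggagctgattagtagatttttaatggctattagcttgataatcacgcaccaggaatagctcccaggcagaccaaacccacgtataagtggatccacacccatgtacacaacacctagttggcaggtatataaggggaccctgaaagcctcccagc
The only match in these windows was TATAAA in *KRT10*, starting 29 bases before the start site. Only these exact letters were searched, so that other forms of a TATA box in *KRT5* or *KRT2* would have been missed. Among 35116 promoters of the same length TATAAA occurred in 10.7%, TGANTCA in 6.57%, GGGCGG in 42.6% and GCCNNNGGC in 19.8%.

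To see which keratins HaCaT lines make, the 10 genes were ordered by their level in WT. *KRT5* was the highest of the 10 in each of the 6 libraries, and stood between rank 4 and rank 12 among all 21475 genes. Below it, *KRT14*, *KRT15*, *KRT6A* and *KRT1* had overlapping WT values, followed by *KRT10* and *KRT17*, whose WT values overlapped as well. *KRT16* was at 32.2 to 99.4 FPKM, below every WT value of those 7 genes. *KRT6B* and *KRT2* were near the limit of the filter on low values, with overlapping WT values below 5 FPKM. Together the 10 genes took 2.19% to 3.88% of all FPKM in WT and 2.70% to 5.22% in KO.

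**Figure D1:**
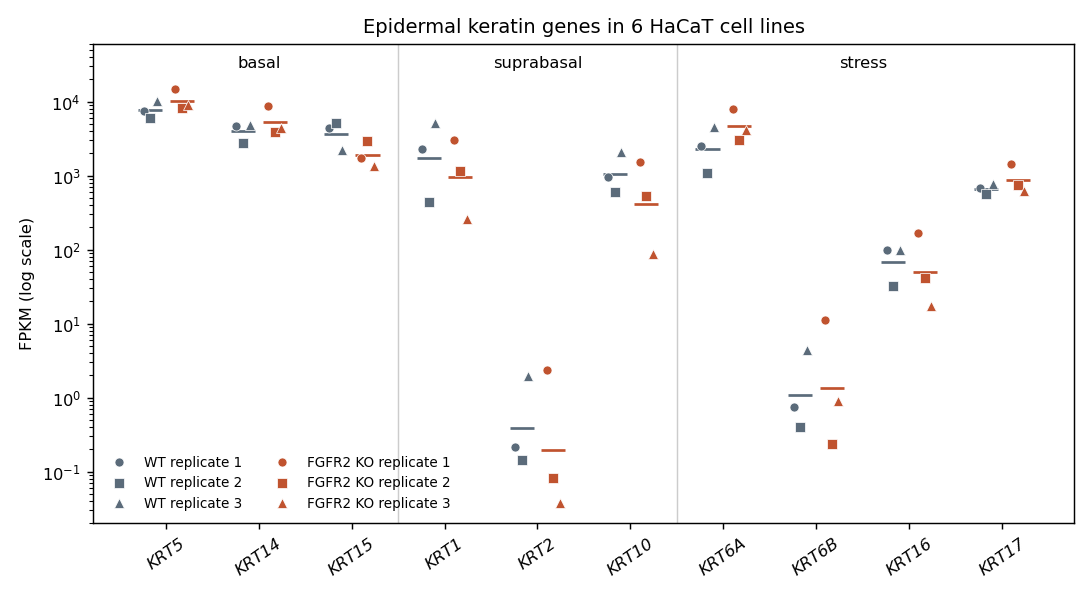
FPKM of the 10 keratin genes on a log axis, grouped as basal, suprabasal and stress keratins, with 1 point per library, WT in grey and FGFR2 KO in orange, marker shape giving the replicate and horizontal lines the geometric mean of each group. The WT and KO points overlap for every gene, the points of KRT5 lie close together, and those of KRT1, KRT2, KRT10, KRT6B and KRT16 are spread 9.63-fold to 63.1-fold over the 6 libraries.

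To determine whether the keratins differed between *FGFR2* KO and WT lines, genes whose mean reached 0.5 FPKM were compared with limma on log2(FPKM + 0.5), and the 10 keratins, which all passed this filter, were read from that fit. None of the 10 was called by the joint threshold of an adjusted p up to 0.05 and a log2 fold change of 0.5 or more in either direction, and neither was any other of the 12241 genes tested (0.0%, smallest adjusted p 0.261), although 2065 genes had an unadjusted p of at most 0.05. Even *FGFR2*, the gene knocked out, was not called, at a log2 fold change of -2.73 (standard error 0.36, limma adjusted p = 0.261). A gene not called here may therefore still differ. With DESeq2, the paper did report differentially expressed genes between KO and WT lines. At the unadjusted threshold with the same fold minimum, 0 of the 10 keratins passed, against 10.2% of all tested genes higher in KO (1251 genes) and 2.33% lower (285 genes). With median-of-ratios scaling this split was 785 higher and 521 lower, and with quantile normalization 803 and 502. For no keratin did all 3 KO values lie on one side of all 3 WT values, against 18.3% of tested genes with KO above WT and 5.77% with KO below WT. The mean log2 level was higher in KO for 5 keratins and lower for 5. For 1 gene in 3 against 3 lines, 0.1 is the smallest p that a two-sided exact permutation test allows.

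**Figure D2:**
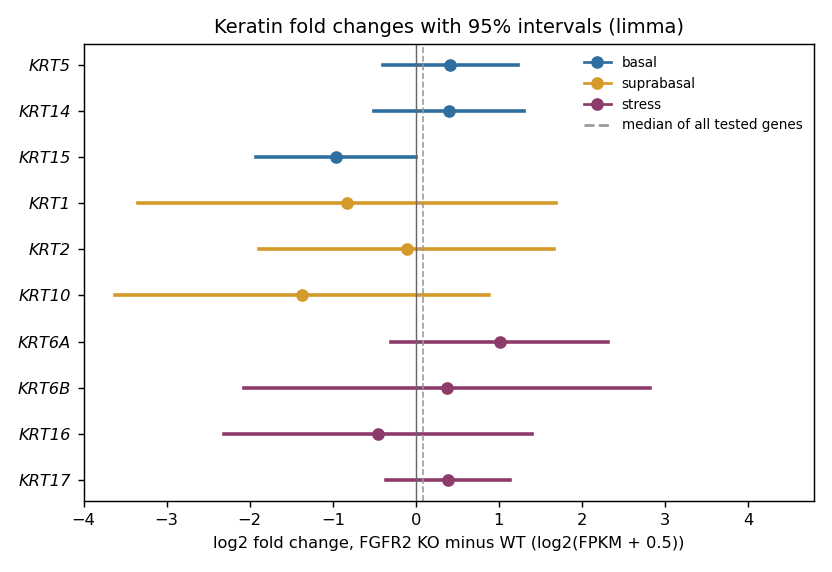
Log2 fold change of each keratin gene, FGFR2 KO minus WT, as a point with its 95% confidence interval from limma, coloured by class, with a solid line at 0 and a dashed line at 0.09, the median of all 12241 tested genes. Every interval includes 0 (that of KRT15 reaches from -1.92 to 0.00), and the intervals of KRT1, KRT10 and KRT6B are the widest.

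Of the basal keratins, *KRT5* and *KRT14* had higher means and *KRT15* a lower mean in KO, and none of these differences passed the test. *KRT5* (ENSG00000186081, chr12:52514575-52520530), the type II keratin of the basal layer, had 7544, 6086 and 10050.1 FPKM in WT and 14768, 8176 and 9037 FPKM in KO, replicates 1 to 3. The highest level was that of KO replicate 1, while the other 2 KO values lay inside the WT range. Its log2 fold change was 0.41 (standard error 0.35, limma adjusted p = 0.555), and it was 0.15 without KO replicate 1, 0.24 without WT replicate 2 and 0.85 with quantile normalization. *KRT14* (ENSG00000186847, chr17:41582279-41586895), its type I partner, had 4723, 2793 and 4857 FPKM in WT and 8652, 3899.7 and 4392 FPKM in KO, again with KO replicate 1 above all others. The log2 fold change of *KRT14* was 0.40 (standard error 0.39, limma adjusted p = 0.608), and it was 0.05 without KO replicate 1.

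*KRT15* (ENSG00000171346, chr17:41513745-41522529), a type I keratin of basal cells that is known to mark stem cells of the hair follicle bulge, had the smallest unadjusted p of the 10. It had 4432, 5188 and 2200.2 FPKM in WT and 1737, 2937 and 1352 FPKM in KO, replicates 1 to 3. Its mean was 3940 ± 1554 FPKM in WT and 2009 ± 827 FPKM in KO (SD, n = 3 each), and only KO replicate 2 lay above the lowest WT library. The log2 fold change was -0.96 (95% interval -1.92 to 0.00, adjusted p = 0.296 from limma), with an exact two-sided permutation p of 0.2. Leaving out each library in turn kept it between -1.33 and -0.71. Its unadjusted limma p was 0.05, just over the threshold before rounding, and fell below it under several alternatives. *KRT15* also went against its class: its level was 0.938, 1.86 and 0.453 times that of *KRT14* in WT and 0.201, 0.753 and 0.308 times in KO, so that the order of the 2 type I genes changed among the WT lines and *KRT14* was higher in all KO lines.

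All 3 suprabasal keratins had a lower mean log2 level in KO, none of them past the test, and their levels differed widely between lines of the same genotype. *KRT1* (ENSG00000167768, chr12:52674736-52680407), the type II keratin made when keratinocytes start to differentiate, had 2254, 435 and 5121 FPKM in WT and 3024, 1145 and 259 FPKM in KO, replicates 1 to 3. The highest and lowest library differed 11.8-fold among the WT lines and 11.7-fold among the KO lines, and the ranges of the groups largely coincided. The pooled SD of its log2 values within groups was 1.80, against a median of 0.24 over all tested genes, and only 0.196% of tested genes had a larger one. Its log2 fold change was -0.83 (standard error 1.08, limma adjusted p = 0.709), and it was 0.12 without KO replicate 3.

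*KRT10* (ENSG00000186395, chr17:40818117-40822614), the type I partner of *KRT1*, had 956, 607 and 2056 FPKM in WT and 1503, 530.0 and 86.2 FPKM in KO. KO replicate 3 stood apart from the other 5 libraries, of which the lowest was KO replicate 2. The pooled within-group SD was 1.60, and 0.408% of tested genes had a larger one. The log2 fold change of -1.37 had a standard error of 0.96 (limma adjusted p = 0.481), and it shrank to -0.25 without KO replicate 3 and grew to -2.31 without KO replicate 1. *KRT2* (ENSG00000172867, chr12:52644558-52652211), a type II keratin of the upper epidermal layers, was hardly expressed, with 0.216, 0.144 and 1.96 FPKM in WT and 2.36, 0.0819 and 0.0374 FPKM in KO. These values correspond to about 43, 24 and 341 fragments in WT and 508, 14 and 8 in KO. Unlike its mean log2 level, the mean FPKM of *KRT2* was slightly higher in KO, at 0.827 against 0.772 in WT. *KRT2* was highest in WT replicate 3 and KO replicate 1, the libraries with the highest *KRT1* and *KRT10*, and its log2 fold change of -0.11 (standard error 0.76, limma adjusted p = 0.952) changed sign when any of 3 libraries was left out, namely WT replicate 3 (0.51), KO replicate 2 (0.25) or KO replicate 3 (0.31).

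Of the stress keratins, 3 had a higher and 1 a lower mean log2 level in KO, and none of these differences passed the test. *KRT6A* (ENSG00000205420, chr12:52487176-52493257), a type II keratin that is induced at wound edges, was the highest stress keratin and had 2534, 1082 and 4475 FPKM in WT and 7927, 3002 and 4187 FPKM in KO. The mean was 2697 ± 1702 FPKM in WT and 5039 ± 2570.4 FPKM in KO (SD, n = 3 each), while WT replicate 3 lay above 2 of the KO libraries. Its log2 fold change of 1.01, the largest positive value among the 10, had a 95% interval from -0.30 to 2.32 (adjusted p = 0.387 from limma, exact two-sided permutation p = 0.3). It stayed between 0.46 and 1.49 with each library left out. *KRT17* (ENSG00000128422, chr17:41619442-41624842), a type I keratin of hair follicles and of injured epidermis, had 686, 569 and 761 FPKM in WT and 1438, 756 and 612 FPKM in KO. Only KO replicate 1 lay outside the WT range, and the log2 fold change was 0.39 (standard error 0.32, limma adjusted p = 0.545) with all libraries and 0.03 without that one.

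*KRT16* (ENSG00000186832, chr17:41609778-41615899), the type I keratin that is usually induced together with *KRT6A*, had 99.4, 32.2 and 97.7 FPKM in WT and 167, 41.2 and 17.3 FPKM in KO. The KO lines thus held both the highest and the lowest level. The log2 fold change was -0.46 (standard error 0.80, limma adjusted p = 0.786), and 0.29 without KO replicate 3. *KRT6B* (ENSG00000185479, chr12:52446651-52452146), the second type II stress keratin, had only 0.737, 0.403 and 4.44 FPKM in WT and 11.1, 0.234 and 0.907 FPKM in KO, far below *KRT6A* in every library, by 717 to 12824 times. Its log2 fold change of 0.37 (standard error 1.05, limma adjusted p = 0.876) was -0.80 without KO replicate 1 and -0.11 without WT replicate 2. How far the division of shared reads set these low values was not tested. *KRT6C*, named here for its sequence after its values were seen, reached at most 3.74 FPKM.

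The classes were then compared by their summed FPKM, with no test since sums carry the choice of genes. The basal sum was 16699, 14068 and 17107 FPKM in WT and 25157, 15013 and 14781 FPKM in KO. It varied 1.22-fold within WT and 1.70-fold within KO. The suprabasal sum was 3210.0, 1042 and 7178 FPKM in WT and 4529, 1675 and 345 FPKM in KO, a 6.89-fold range within WT and a 13.1-fold range within KO. The stress sum was 3319.7, 1684 and 5338 FPKM in WT and 9543, 3800.0 and 4817 FPKM in KO. Median log2 fold changes were 0.40 for the 3 basal, -0.83 for the 3 suprabasal and 0.38 for the 4 stress keratins, beside 0.09 for all tested genes. The basal median was 0.05 without KO replicate 1 and 0.14 without WT replicate 2. The suprabasal median was 0.12 without KO replicate 3, and the stress median was -0.39 without KO replicate 1.

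As shares of the 10 genes, basal keratins were 71.1 ± 13.1% in WT and 70.5 ± 5.56% in KO (SD, n = 3 each). Suprabasal keratins were 13.8%, 6.21% and 24.2% in WT and 11.5%, 8.18% and 1.73% in KO replicates 1, 2 and 3, and overlapped. Stress keratins were 14.3%, 10.0% and 18.0% in WT and 24.3%, 18.5% and 24.2% in KO. Each KO library thus had a larger stress share than each WT library, by a margin of 18.5% against 18.0% between the nearest of them. For comparison, the levels of 18.3% of tested genes had all KO values above all WT values. Most of the stress share was *KRT6A*, which alone made up 6.44% to 15.1% of the sum in WT and 14.7% to 21.0% in KO. Relative to the basal sum, the stress sum was 0.199, 0.12 and 0.312 in WT and 0.379, 0.253 and 0.326 in KO, which overlapped.

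**Figure D3:**
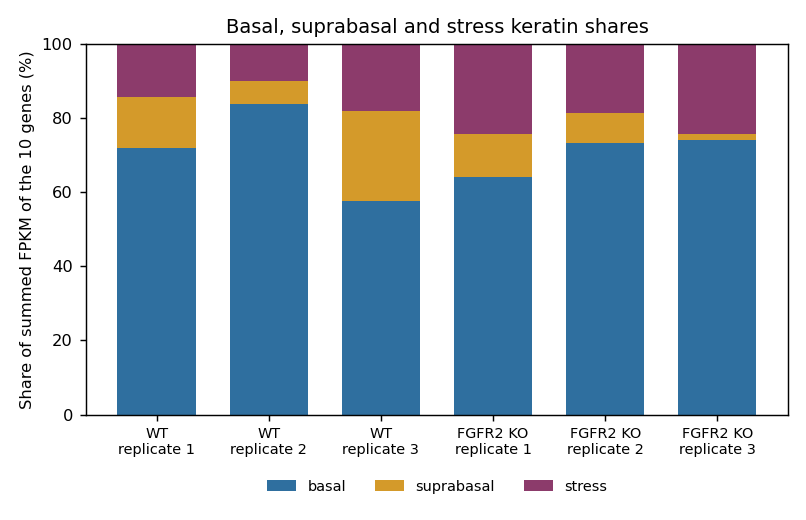
Stacked bars of the share, in percent of the summed FPKM of the 10 genes, of basal, suprabasal and stress keratins in each WT and FGFR2 KO library. Basal keratins make up 57.7% to 83.8% of every bar, and the suprabasal share runs from 24.2% in WT replicate 3 to 1.73% in KO replicate 3. The stress share is 18.0% or less in WT and 18.5% or more in KO. Levels with all KO values above all WT values occur in 18.3% of tested genes.

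Because keratins assemble in pairs, the level of each type II gene was also set against its type I partner. *KRT5* was 1.6, 2.18 and 2.07 times *KRT14* in WT and 1.71, 2.10 and 2.06 times in KO, so that the ratio of the basal pair varied less than either gene. Across the 6 libraries their log2 levels had Pearson's r = 0.95 and Spearman's rho = 0.83 (exact permutation p = 0.0125 and 0.0583, or 0.0312 and 0.0729 with Benjamini-Hochberg adjustment over the 5 pairs examined). Without the libraries farthest from the median of *KRT5*, WT replicate 2 and KO replicate 1, r was 0.32, so that the relation rests on those lines. *KRT1* and *KRT10* had r = 0.90 and rho = 0.94 (exact permutation p = 0.00278 and 0.0167, adjusted 0.0139 and 0.0417), and r was 0.99 without WT replicate 2 and KO replicate 3. *KRT1* was 2.36, 0.716 and 2.49 times *KRT10* in WT and 2.01, 2.16 and 3.00 times in KO, WT replicate 2 being the only library with more *KRT10* than *KRT1*. *KRT2* and *KRT10* had r = 0.75 and rho = 0.94 (exact permutation p = 0.0708 and 0.0167, adjusted 0.108 and 0.0417), with r = 0.87 without WT replicate 3 and KO replicate 1.

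*KRT6A* and *KRT16* had r = 0.48 and rho = 0.43 (exact permutation p = 0.338 and 0.419, the same after adjustment), and r = -0.32 without WT replicate 2 and KO replicate 1. *KRT6A* was 25.5, 33.6 and 45.8 times *KRT16* in WT and 47.5, 72.9 and 241 times in KO. The ratio was thus higher in every KO line, most of all in KO replicate 3, but only by 47.5 against 45.8 between the nearest lines. Among tested genes, 18.3% had levels with all KO values above all WT values. *KRT6A* and *KRT17* had r = 0.77 and rho = 0.83 (exact permutation p = 0.0861 and 0.0583, adjusted 0.108 and 0.0729), and r = -0.10 without the same libraries. High correlations were not limited to partners. *KRT5* and *KRT6A*, both type II genes, had r = 0.96, and the suprabasal *KRT1* and the stress gene *KRT16* had r = 0.92, given here as descriptions. *KRT17* kept a narrow ratio to the basal *KRT14*, at 0.145, 0.204 and 0.157 times its level in WT and 0.166, 0.194 and 0.139 times in KO.

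**Figure D4:**
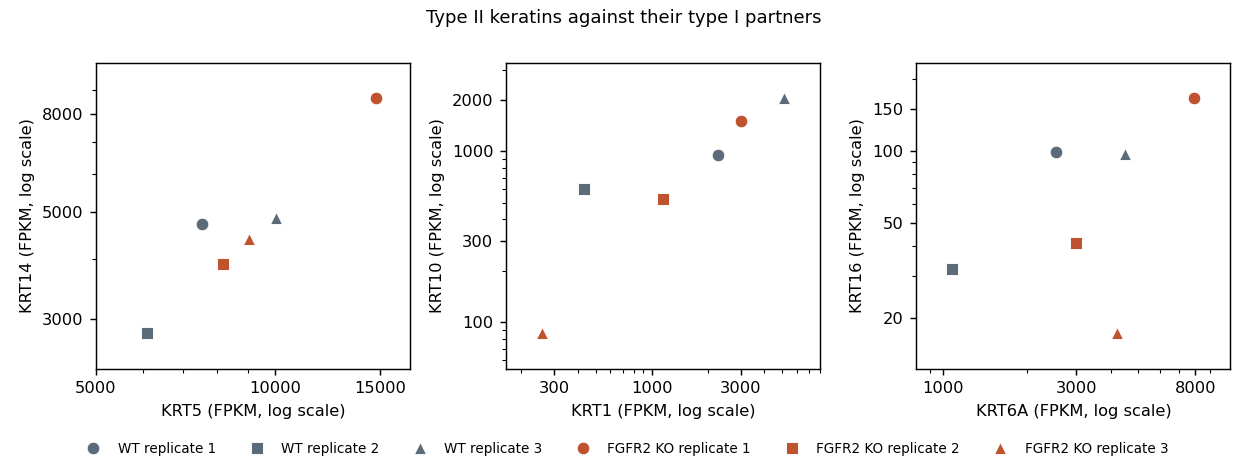
Levels of 3 type II keratins against type I partners on log axes (FPKM), with 1 point per library, WT in grey and FGFR2 KO in orange, marker shape giving the replicate. KRT5 and KRT14 lie along a line that WT replicate 2 and KO replicate 1 stretch, KRT1 and KRT10 follow each other from KO replicate 3 to WT replicate 3, and KRT6A and KRT16 part in KO replicate 3, where KRT6A is at 4187 FPKM and KRT16 at 17.3 FPKM.

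In all, 16 ratios of members and of class sums were formed after the levels had been seen, and they carry no test. Besides *KRT6A* to *KRT16*, the groups did not overlap for *KRT10* to *KRT14*, which compares a suprabasal with a basal type I gene. Such separation was also seen for the levels of 18.3% of tested genes with KO above WT and 5.77% with KO below WT. *KRT10* was 0.202, 0.217 and 0.423 times *KRT14* in WT and 0.174, 0.136 and 0.0196 times in KO, lower in each KO line. The type II counterpart, *KRT1* to *KRT5*, was 0.299, 0.0715 and 0.510 in WT and 0.205, 0.140 and 0.0286 in KO, and here WT replicate 2 lay below 2 of the KO lines.

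The order of the libraries by their keratins was not that of genotype. WT replicate 3 and KO replicate 1 had the most *KRT1*, *KRT10*, *KRT2*, *KRT6A* and *KRT6B* of the 6, WT replicate 2 the least *KRT5*, *KRT14*, *KRT6A* and *KRT17*, and KO replicate 3 the least *KRT15*, *KRT1*, *KRT10*, *KRT2* and *KRT16*. Genes of the chromosomes that carry the keratins were checked as a whole: the median of 631 other tested genes of chromosome 12 lay within -0.03 to 0.02 of the library median on the log2 scale in all libraries, and that of 746 other genes of chromosome 17 within -0.20 (WT replicate 3) to 0.16 (KO replicate 2). A median over a whole chromosome cannot show a change confined to a part of it, and the copy number of the keratin genes was not tested.

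Genes with the most similar profile were sought by the correlation of their log2 level over the 6 libraries with the mean log2 level of a class, as a description, since all genes share the same 6 libraries. For the suprabasal class, 65 of 12231 other tested genes had r of at least 0.95. The closest were *IL6R* (r = 0.999), the interleukin-6 receptor, *PKP1* (0.997), a desmosomal plaque protein of suprabasal cells, *PITX1* (0.989), *ADH7* (0.988), an alcohol dehydrogenase that acts on retinol, and *SULT2B1* (0.986), a cholesterol sulfotransferase of the upper epidermis. *PKP1* had 517, 411 and 692 FPKM in WT and 643, 465 and 306 FPKM in KO, which put the libraries in the same order as *KRT1* over a narrower range. *SULT2B1* went from 22.9 FPKM in KO replicate 1 and 22.5 FPKM in WT replicate 3 to 2.63 FPKM in KO replicate 3.

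For the stress class, 49 genes reached r = 0.95, and the closest were *PI3* (0.996), the elastase inhibitor elafin, which is made in inflamed epidermis, *CEBPB* (0.995), a transcription factor of keratinocyte differentiation, *WNT2B* (0.995), *MAP2* (0.993) and *LAD1* (0.989), an anchoring filament protein of the basement membrane zone. *PI3* had 25.1, 6.58 and 128 FPKM in WT and 421, 14.3 and 12.4 FPKM in KO, a profile led by KO replicate 1. The class mean weighs each gene alike, and the low *KRT6B* (pooled within-group SD 1.73) and *KRT16* (1.33) varied more than *KRT6A* (0.89). For the basal class only 8 genes reached r = 0.95, and the closest were *JUP* (0.994), the desmosomal protein plakoglobin, *ID2* (0.988), an inhibitor of helix-loop-helix transcription factors, *NAIP* (0.977), *KCNK1* (0.967), a potassium channel, and *SLC10A6* (0.963). *JUP* had 1666, 1256 and 1454 FPKM in WT and 1912, 1354 and 1009 FPKM in KO. It was lowest in KO replicate 3, where *KRT5* had 9037 FPKM, above its WT mean of 7894 FPKM. *KRT15* had r = -0.75 with *KRT5* and -0.6 with *KRT14*, so that the basal mean does not stand for each of its genes.

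Genes that act with the keratins were described as lists. Over all tested genes, 10.2% passed the unadjusted threshold with the fold minimum higher in KO and 2.33% lower. Of 23 suprabasal differentiation genes, among them genes of the cornified envelope, 20 were tested. Of these, 17 had a lower and 3 a higher mean log2 level in KO, at a median log2 fold change of -0.50 beside 0.09 for all tested genes. No gene of the list was called, and 2 were past the unadjusted threshold, both lower in KO. Of those 2, *CNFN* (cornifelin), named after its values were seen, had 2.95, 3.22 and 4.18 FPKM in WT and 1.62, 2.27 and 1.0 FPKM in KO. *IVL*, the envelope protein involucrin, had 338, 324 and 180.3 FPKM in WT and 79.7, 265 and 81.8 FPKM in KO, with a log2 fold change of -1.17 (standard error 0.48, limma adjusted p = 0.285). *IVL* did not share the order of *KRT1*, since it was higher in WT replicate 2 than in WT replicate 3 and low in KO replicate 1. *SPRR1B*, a small proline-rich envelope protein and the highest gene of this list, did share it, with 361, 113 and 1001 FPKM in WT and 665, 313 and 49.5 FPKM in KO (log2 fold change -0.66, standard error 1.05). *CSTA*, the protease inhibitor cystatin A, had 165 to 370 FPKM in WT and 121 to 420 FPKM in KO (log2 fold change -0.17, limma adjusted p = 0.872).

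**Figure D5:**
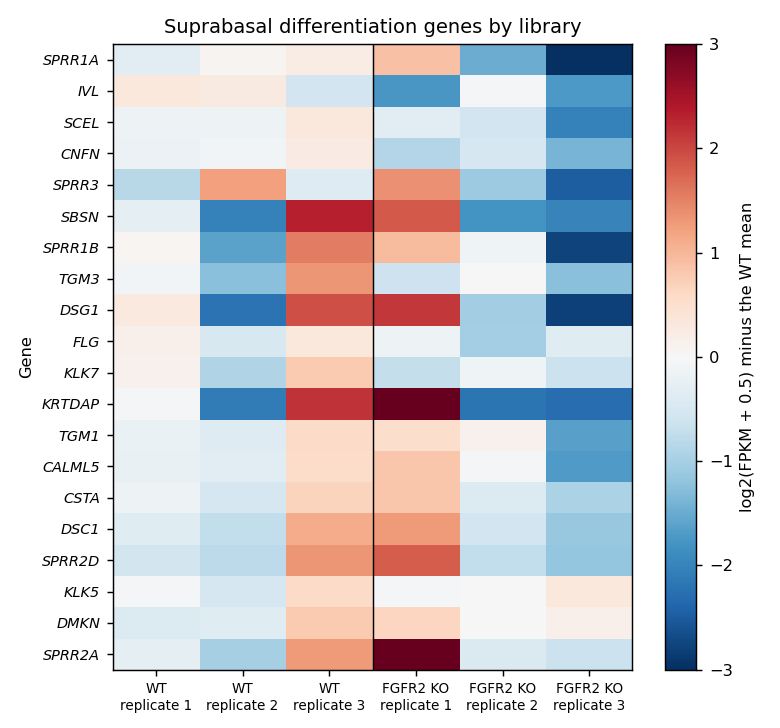
Log2(FPKM + 0.5) minus the WT mean for the 20 tested suprabasal differentiation genes (rows, ordered by log2 fold change) in the 6 libraries (columns), red above and blue below the WT mean, with colours ending at 3 in either direction. WT replicate 3 and FGFR2 KO replicate 1 are red for most genes, WT replicate 2 is blue for many, and FGFR2 KO replicate 3 is blue for nearly all, as for KRT1 and KRT10.

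Of 18 stress and hyperproliferation genes 14 were tested, 10 with a higher and 4 with a lower mean in KO (median log2 fold change 0.16). Past the unadjusted threshold was 1 of them, higher in KO, beside 10.2% of all tested genes in that direction. This was *AREG*, the EGF receptor ligand amphiregulin, named after its values were seen, with 2.67, 3.31 and 2.63 FPKM in WT and 4.78, 3.47 and 7.14 FPKM in KO. The highest genes of the list were *S100A2*, a calcium-binding protein of basal keratinocytes, with 916 to 992 FPKM in WT and 971 to 1262 FPKM in KO, *S100A7* (psoriasin) with 37.1 to 462 FPKM in WT and 6.60 to 115 FPKM in KO, and *PI3*. *S100A7* was highest in WT replicate 2, where *KRT6A* and *KRT16* were low. Of 18 other keratins 14 were tested, 4 higher and 10 lower in KO (median -0.22). In each direction 1 was past the unadjusted threshold, beside 10.2% of all tested genes higher and 2.33% lower. The gene lower in KO was *KRT4*, the type II keratin of mucosal epithelia, at 1439, 4412 and 932 FPKM in WT and 688, 961 and 167 FPKM in KO (log2 fold change -1.91, standard error 0.76, limma adjusted p = 0.280). Its type I partner *KRT13* had 4718 to 10891 FPKM in WT and 5070.5 to 7101 FPKM in KO, a level like that of *KRT5* (log2 fold change -0.32, limma adjusted p = 0.668). Both were highest in WT replicate 2, the WT line with the least *KRT1* and *KRT5*. The gene past the threshold and higher in KO was *KRT18*, a type I keratin of simple epithelia, named after its values were seen, at 103, 133 and 133 FPKM in WT and 161, 157 and 315 FPKM in KO. *KRT19*, a type I keratin of simple epithelia as well, had 893 to 1512 FPKM in WT and 531 to 1123 FPKM in KO (limma adjusted p = 0.356).

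Genes of the junctions that anchor keratin filaments came next, followed by regulators. For these lists too, the shares of all tested genes past the unadjusted threshold were 10.2% higher and 2.33% lower in KO. Of 11 hemidesmosome and adhesion genes, 6 were higher and 5 lower in KO (median 0.01), and *LAMA3*, a laminin chain named after its values were seen, was the 1 gene past the unadjusted threshold (log2 fold change 0.52). *COL17A1*, the hemidesmosomal collagen, had 568 to 905 FPKM in WT and 641 to 772 FPKM in KO, *ITGA6* had 464 to 846 and 567 to 764 FPKM, and *ITGB4* had 298 to 398 and 356 to 405 FPKM. Of 11 desmosomal genes, 6 were higher and 5 lower (median 0.03), with *PKP2*, named after its values were seen, past the unadjusted threshold (log2 fold change 0.71). *PKP3*, a plakophilin of all epidermal layers, had 369 to 464 FPKM in WT and 408 to 615 FPKM in KO. Of 28 regulators of keratin genes, most of them transcription factors, 27 were tested, 11 higher and 16 lower (median -0.02), with 2 past the unadjusted threshold in each direction. Among the highest, *KLF5* and *TP63* had log2 fold changes of -0.21 and -0.02, and *TP63*, the master factor of stratified epithelia, stayed between 116 and 155 FPKM in all 6 libraries. Those past the unadjusted threshold, named after their values were seen, were *FOSL1* (log2 fold change 1.71) and *JUN* (0.67), subunits of AP-1, and *MAF* (-1.62) and *GATA3* (-0.96). *FOSL1* had 6.25, 6.45 and 8.50 FPKM in WT and 19.3, 17.8 and 40.3 FPKM in KO, and its limma adjusted p was 0.261. All its KO values lay above all WT values, as they did for 18.3% of tested genes.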

How the data were processed

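RNA of 3 WT and 3 *FGFR2* KO HaCaT lines was analysed, grouped and numbered by the sample labels. Per the labels and methods, poly(A) RNA was made into stranded libraries, trimmed with fastp 0.20.0 and pseudoaligned with kallisto 0.46.1 to GRCh38 with GENCODE models. The authors deposited FPKM per gene, and how these were computed is not given in the sources used here. Of 21493 genes, 18 Y copies of pseudoautosomal genes were left out and 21400 of the remaining 21475 were given symbols and positions from GENCODE release 44. Of 2730 low values of genes with 1 transcript, 70.6% were whole fragments within 0.05 (10% by chance), so whole reads were not recovered and no count model was run.

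The filter kept genes whose mean over the 6 libraries reached 0.5 FPKM. They were fitted by limma 3.58.1 (R 4.3.3) after adding 0.5 to the FPKM and taking log2, with a mean-variance trend and Benjamini-Hochberg adjustment. A fold change on this scale understates the change of low genes. Calls needed an adjusted p up to 0.05 together with a log2 fold change of 0.5 or more in either direction. The fit was tested on simulated data with a capped spread between libraries. That test does not show how many real differences the fit would miss in these lines. The keratins and gene lists were chosen with earlier results of these data known. Named genes were the 10 keratins, *FGFR2*, the 3 highest genes of each list (1 of them is not reported here) and the 5 most similar genes per class. The p-values measure the spread between lines. Alternatives were other pseudocounts, filters and scalings, library weights, a replicate block and leaving out each library. Depth is an estimate, since the files hold FPKM and no fragment counts. The replicate numbers were not taken as pairs, since correlations of same-numbered libraries' deviations were -0.206, 0.225 and 0.049.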

Additional observations from a re-analysis of the deposited data

How the results depend on the processing

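No keratin and no gene was called under any alternative except library weights, which called 1396 genes, among them *KRT15* (log2 fold change -1.16, limma adjusted p = 0.0447), in a fit that gave WT replicate 1 a weight of 10.264 and the other libraries 0.358 to 1.495. Of 158 refits of single keratins, 149 kept direction and side of the threshold. Reversed signs were those of *KRT2* with library weights (0.95) and without WT replicate 3, KO replicate 2 or KO replicate 3 (up to 0.51, with -0.46 at the other end), of *KRT1* without KO replicate 3 (range -1.82 to 0.12), of *KRT6B* without WT replicate 2 or KO replicate 1 (range -0.80 to 1.19) and of *KRT16* without KO replicate 3 (range -1.33 to 0.29). The cause was not tested. The number of keratins past the unadjusted p and the fold minimum, 0 as reported, was 1 at a pseudocount of 0.1, with a mean of at least 2 FPKM, with scaling to genes outside the mitochondrial chromosome and with median-of-ratios scaling (*KRT15* each time), 2 with quantile normalization (*KRT15*, *KRT5*), 4 with library weights (*KRT15*, *KRT5*, *KRT6A*, *KRT17*) and 0 to 2 with 1 library left out, where *KRT15*, *KRT6A* or *KRT10* passed. With the replicate block it was 2 (*KRT15* and *KRT6A*), and the number of genes called stayed at 0. Same-numbered libraries did not deviate together, and the block changed no other call. With each library left out in turn, genes past the unadjusted threshold were 535 (without KO replicate 3) to 1747 (without KO replicate 2) higher in KO. Those lower in KO were 95 (without KO replicate 3) to 509 (without KO replicate 2). Higher and lower genes were 1667 and 495 with library weights, and 785 and 521 with median-of-ratios scaling. The median of all genes, 0.09 as reported, was -0.02 with median-of-ratios scaling and 0.13 with TPM scaling. *KRT2* was below the filter at a mean of at least 2 FPKM and without KO replicate 1. At the estimated depth, 1 fragment on 1 kb corresponds to 0.0114 to 0.0148 FPKM. Of the 10, *KRT2* and *KRT6B* had the fewest fragments, about 8 to 508 and about 38 to 2234 per library. How far counting limited their values was not tested.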
